A study of Chlorocebus sabaeus with 4 samples.

Results

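The tumour necrosis factor (TNF) superfamily comprises ligands such as TNF, FAS ligand and TRAIL and the receptors that bind them, and its transcripts were followed in the corpus luteum of 2 vervet monkeys. The members were chosen by gene symbol: all symbols starting with TNFSF or TNFRSF and a number, together with TNF, LTA, LTB, LTBR, FAS, FASLG, CD40, CD40LG, CD27, CD70, EDAR and NGFR. The rule found 44 of the 19775 genes with a probe set of their own, of which 41 code for proteins and 3 (TNFRSF10A-DT, TNFRSF10B-AS1 and TNFRSF14-AS1) are non-coding RNAs named after a neighbouring receptor gene. CD40LG, TNFSF12 and TNFRSF6B were not analysed here. Both monkeys were 16-year-old adult females (Chlorocebus sabaeus) of a research colony. Monkey 1030 ate ad libitum and monkey 1031 was under calorie restriction; they are called the ad libitum monkey and the restricted monkey. Frozen corpus luteum, numbered 1 and 2, was taken from each, and each monkey was compared with itself over weight gain or loss. Which number came first is not known here, so every change is stated as sample 2 against sample 1. With 1 monkey per diet, the diet and the monkey cannot be told apart.

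TNF superfamily ligands are made on the cell surface, and many are cut free by proteases. Receptors with a death domain, such as FAS and the TRAIL receptors, can start apoptosis through caspases. The other signalling receptors bind TRAF adaptors and switch on NF-kB and stress kinases, and the decoy receptors hold a ligand without passing on a signal. In the corpus luteum, the progesterone-producing gland that a follicle becomes after ovulation, TNF from macrophages and the FAS system are known for their part in regression at the end of the cycle.

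The change within a monkey was largest in TNFRSF11B, or osteoprotegerin, a secreted decoy receptor that binds RANKL and TRAIL. Its signal in sample 2 of the ad libitum monkey was lower by far (a log2 change of -4.36, to a signal below that array's median), and in sample 2 of the restricted monkey it was 2.39-fold higher. In the ad libitum monkey, TNFRSF19 and the TWEAK receptor TNFRSF12A (2.59-fold) were lower too. The log2 change of TNFRSF19 was -1.45, also to a signal below that array's median. No other member past the level filter reached 2-fold within either monkey. The level filter kept genes whose mean log2 signal over the 4 samples was at least 5.26, the median over genes, and it held 18 members, 17 of them protein-coding, and 9888 genes. The other 26 members lay below it.

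**Figure D1:**
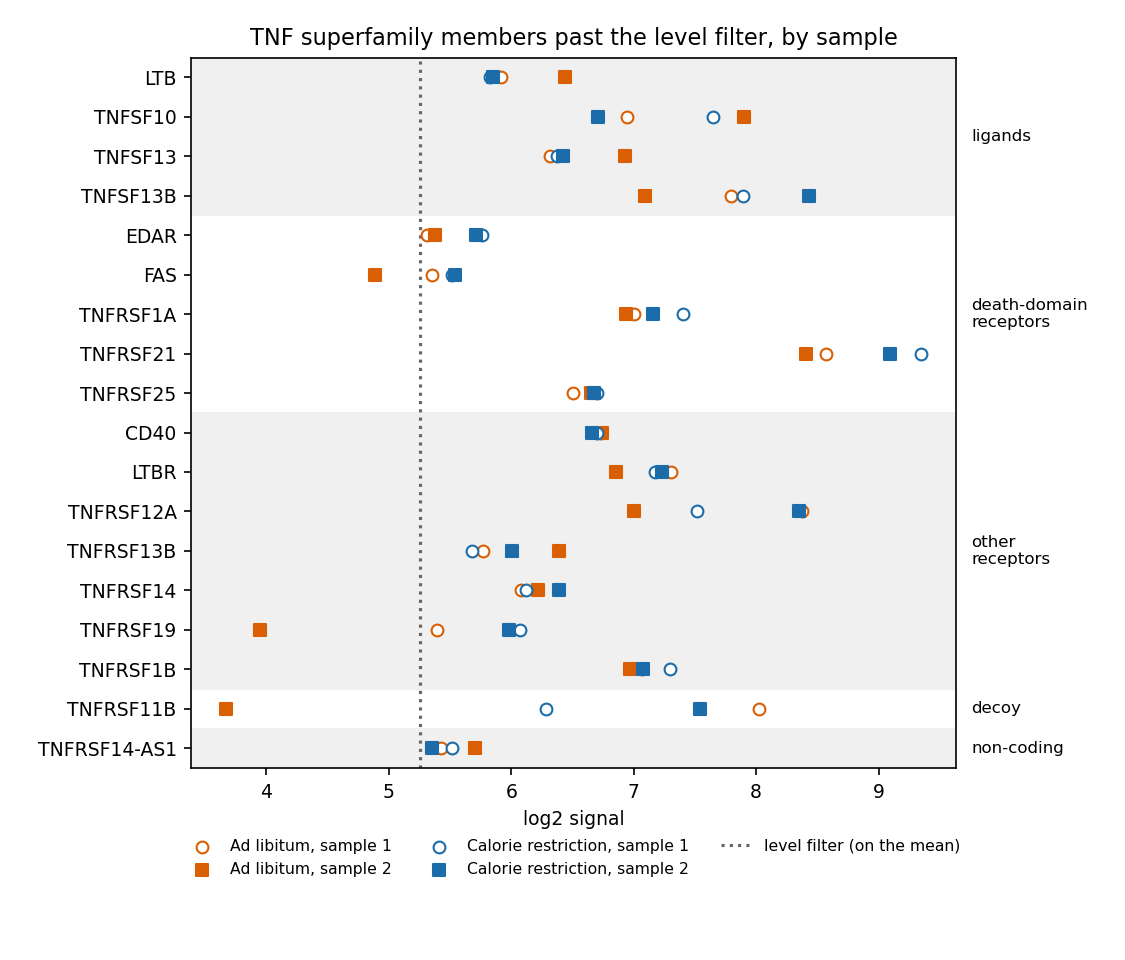
Log2 signal (horizontal axis) of the 18 members past the level filter in each of the 4 samples; open circles are sample 1, filled squares sample 2, orange the ad libitum monkey, blue the restricted monkey, and the dotted line the filter of 5.26. Sample 2 of the ad libitum monkey lies far to the left for TNFRSF11B (3.67) and TNFRSF19 (3.94), whereas both restricted samples lie to the right of both ad libitum samples for TNFRSF21 and EDAR.

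A single array stood for each sample, so changes within a monkey carry no replicate error, and 2-fold is a size chosen in place of a test. In the ad libitum monkey, 3 of the 18 members past the filter (16.7%) were 2-fold lower in sample 2, where 6.58% of all genes past the filter were. None was 2-fold higher, against 2.67% of all genes. In the restricted monkey 1 member was 2-fold higher (0.496% of all genes) and none was 2-fold lower (0.738% of all genes). The median change of the 18 members was -0.03 on the log2 scale in the ad libitum monkey and -0.002 in the restricted monkey, beside -0.01 and -0.03 for all genes past the filter. At 1.5-fold, 2 of 18 members (TNFRSF11B and TNFRSF12A) were lower in sample 2 of the ad libitum monkey and higher in that of the restricted one (1.18% of all genes), 1 (TNFSF10) was the reverse (1.45%), and none was lower in both (0.748%). The family was centred near no change in both monkeys, and its 2-fold changes lay in 3 members.

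**Figure D2:**
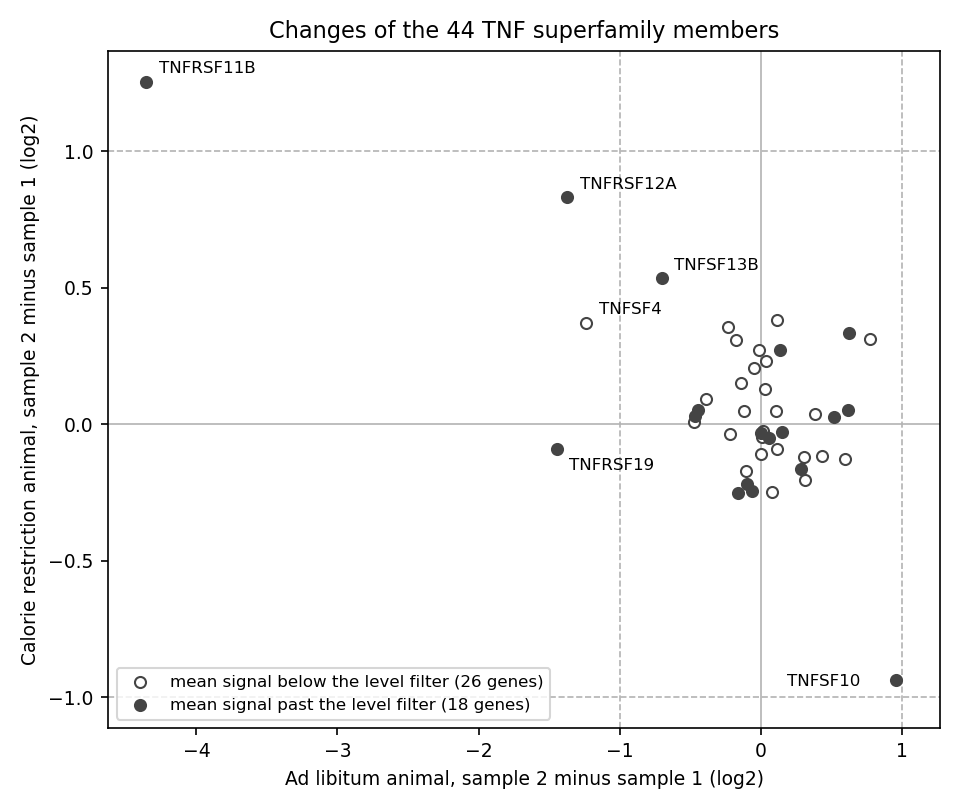
Log2 change from sample 1 to sample 2 of each of the 44 members in the ad libitum monkey (horizontal axis) and in the restricted monkey (vertical axis); filled points are members past the level filter, open points those below it, and dashed lines mark 2-fold. TNFRSF11B stands apart at -4.36 and 1.26, and TNFSF10 lies at 0.95 and -0.94.

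TNFRSF11B had log2 signals of 8.02 and 3.67 in the ad libitum monkey and of 6.29 and 7.54 in the restricted monkey (sample 1, then sample 2, here and below). The ad libitum monkey's sample 2 was the lowest by far and its sample 1 the highest, so that both restricted samples lay between them. The change was -4.36 in the first monkey and 1.26 in the second. The signal of 3.67 lay below the median of 4.0 over all probe sets of that array, so the size of this change is not well measured and no fold is given. A second probe set gave 6.52 and 1.95 in the ad libitum monkey, a change of -4.57, and 5.72 and 6.73 in the restricted one, a change of 1.01. Both probe sets had the same signs and the same lowest sample, below the level filter on each, but on the second the highest sample was sample 2 of the restricted monkey. The 10 measured marker genes of luteal steroidogenic cells had mean log2 signals of 10.7 and 7.33, then 9.15 and 9.86, the order of samples seen on the first probe set of TNFRSF11B. All 9 past the filter were 2-fold lower in sample 2 of the ad libitum monkey, and 4 were 2-fold higher in that of the restricted monkey. Bacterial hybridisation controls, at 10.58 and 9.85, then 10.09 and 10.54, also followed that order. The part of the luteal markers and of the controls in the change of TNFRSF11B was not tested, and in whole tissue fewer cells of a type and less RNA per cell cannot be told apart.

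The partners of TNFRSF11B lay below the filter. TNFSF11, or RANKL, the ligand that osteoprotegerin holds, had signals of 2.53 and 2.54 in the ad libitum monkey and 2.59 and 2.54 in the restricted monkey. Its signalling receptor TNFRSF11A, or RANK, had 3.01 and 3.09, then 3.19 and 2.94. Of the other decoy receptors, which bind TRAIL, TNFRSF10C had 4.91 and 4.68, then 4.66 and 5.02, and TNFRSF10D 2.97 and 3.07, then 3.10 and 3.15. All 4 changed by under 1.5-fold in both monkeys at these low signals.

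TNFRSF12A, the receptor of the ligand TWEAK, which acts in tissue repair and remodelling, had signals of 8.37 and 7.0 in the ad libitum monkey and of 7.52 and 8.35 in the restricted monkey. It was lower in sample 2 of the first (-1.37) and 1.78-fold higher in that of the second (0.83), and its samples stood in the order of the luteal markers. TNFRSF19, an orphan receptor of this family, had 5.39 and 3.94 in the ad libitum monkey and 6.07 and 5.98 in the restricted one. Here the restricted samples differed little (-0.09), and sample 2 of the ad libitum monkey stood alone below the other 3. Its signal of 3.94 lay just below that array's median of 4.0, so the size of this change is not well measured either. TNFRSF11B and TNFRSF19 were the members for which that sample lay at least 2-fold below each of the other 3 samples (2 of 18, against 3.40% of all genes). TNFRSF12A had 1 probe set. The other probe sets of TNFRSF19 lay below the filter and gave changes of -0.41 and -0.004, and the mean of its probe sets gave -0.62, under 2-fold.

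**Figure D3:**
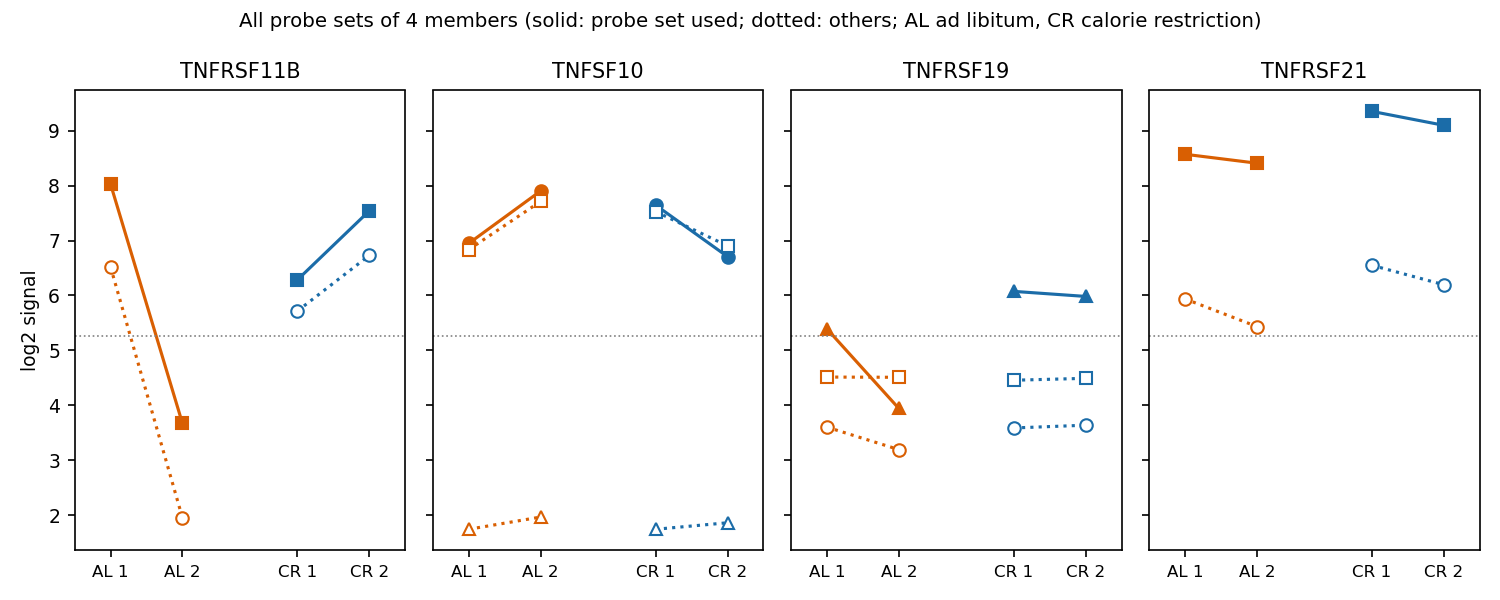
Log2 signal of every probe set of TNFRSF11B, TNFSF10, TNFRSF19 and TNFRSF21 in the 4 samples (AL ad libitum, CR calorie restriction); solid lines are the probe set used, dotted lines the others, and the thin dotted line is the level filter of 5.26. Both probe sets of TNFRSF11B are over 4 log2 units lower in sample 2 of the ad libitum monkey, and the 2 TNFSF10 probe sets past the filter move in opposite directions in the monkeys.

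TNFSF10, or TRAIL, a ligand that can trigger apoptosis through its death receptors, came close to 2-fold in both monkeys. Its signals were 6.95 and 7.90 in the ad libitum monkey and 7.64 and 6.71 in the restricted monkey. It was 1.94-fold higher in sample 2 of the first (0.95) and 1.91-fold lower in that of the second (-0.94), the reverse of the signs of TNFRSF11B, which can bind it. Another probe set past the filter gave 0.88 and -0.62. Of 4 markers of theca cells, the androgen-making cells of the follicle, 3 carried the same signs. The other, CYB5A, had the opposite ones (-0.42 and 0.20). In sample 2 of the ad libitum monkey 3 of 4 were 2-fold higher, and 2 of 4 were lower in that of the restricted one. The means of the 4 were 9.57 and 10.69, then 9.21 and 7.89. Their part in the change of TNFSF10 was not tested. The TRAIL death receptors lay below the filter, TNFRSF10A at 4.22 and 4.0, then 4.27 and 4.23, and TNFRSF10B at 4.03 and 3.55, then 3.97 and 3.98. Neither reached 1.5-fold in a monkey.

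TNF itself had low signals in every sample, 3.02 and 3.14 in the ad libitum monkey and 2.99 and 3.37 in the restricted monkey. Both of its receptors passed the filter. TNFRSF1A, the widely expressed death-domain receptor, had 7.0 and 6.94, then 7.40 and 7.16. TNFRSF1B, which binds TRAF2 and has no death domain, had 7.06 and 6.97, then 7.30 and 7.08. For both receptors the restricted samples were the higher ones, but by little. For TNFRSF1B, restricted sample 2 (7.08) lay beside ad libitum sample 1 (7.06). The restricted samples themselves differed by -0.25 for TNFRSF1A and by -0.22 for TNFRSF1B. FASLG lay below the filter (3.92 and 3.91, then 3.71 and 3.99). FAS, its receptor, had 5.36 and 4.89, then 5.51 and 5.54, a change of -0.47 in the ad libitum monkey and 0.03 in the restricted one.

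In the lymphotoxin branch, which organises lymphoid tissue, LTA lay below the filter at 3.94 and 3.96, then 3.91 and 3.89. LTB stood at 5.92 and 6.43 in the ad libitum monkey and 5.82 and 5.85 in the restricted one. Its receptor LTBR had 7.31 and 6.86, then 7.18 and 7.23. LTB was thus higher (0.52) and LTBR lower (-0.45) in sample 2 of the ad libitum monkey, both under 1.5-fold. For LTBR another probe set past the filter had the opposite sign (0.58), and for LTB the other probe set, below the filter, gave -0.01. CD40, the receptor through which T cells activate B cells and macrophages, was nearly level at 6.74 and 6.74, then 6.70 and 6.66. TNFRSF14, the receptor of LIGHT, had 6.08 and 6.22, then 6.12 and 6.39. The non-coding TNFRSF14-AS1 beside it had 5.42 and 5.71, then 5.52 and 5.35.

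Of the ligands that keep B cells alive, TNFSF13B, or BAFF, had 7.80 and 7.10 in the ad libitum monkey and 7.90 and 8.43 in the restricted monkey, changes of -0.70 and 0.53. Its second probe set, below the filter, gave changes of the opposite sign (0.18 and -0.20). TNFSF13, or APRIL, had 6.32 and 6.93, then 6.37 and 6.43, a 1.53-fold higher value in sample 2 of the ad libitum monkey. TNFRSF13B, or TACI, which binds both ligands, had 5.77 and 6.39, then 5.67 and 6.01. BAFF and APRIL therefore differed in the sign of their change in the ad libitum monkey. The other B-cell receptors, TNFRSF13C and TNFRSF17, lay below the filter, and of 8 measured B and plasma cell markers, TNFRSF17 among them, 6 did so too.

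Below the filter, TNFSF4, or OX40 ligand, a costimulator of T cells, was the one member that reached 2-fold. Its signals were 5.89 and 4.66 in the ad libitum monkey and 4.85 and 5.22 in the restricted monkey, so it was 2.36-fold lower in sample 2 of the first (-1.24). Its receptor TNFRSF4 had 4.36 and 3.97, then 4.18 and 4.27. The other 25 members below the filter had changes between -0.48 and 0.77 in the ad libitum monkey and between -0.25 and 0.38 in the restricted monkey, and 23 of the 26 stayed under 1.5-fold in both. They included the T-cell costimulators CD27, CD70, TNFRSF8, TNFRSF9, TNFRSF18, TNFSF8, TNFSF9, TNFSF14, TNFSF15 and TNFSF18, and the nerve growth factor receptor NGFR. The largest of their changes was that of TNFRSF9, or 4-1BB, with 3.28 and 4.06 in the ad libitum monkey. In the vervet annotation 10 pairs of members are next neighbours, such as LTA and TNF or TNFSF18 and TNFSF4, and TNFSF4 was the one gene of these pairs that reached 2-fold.

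**Figure D4:**
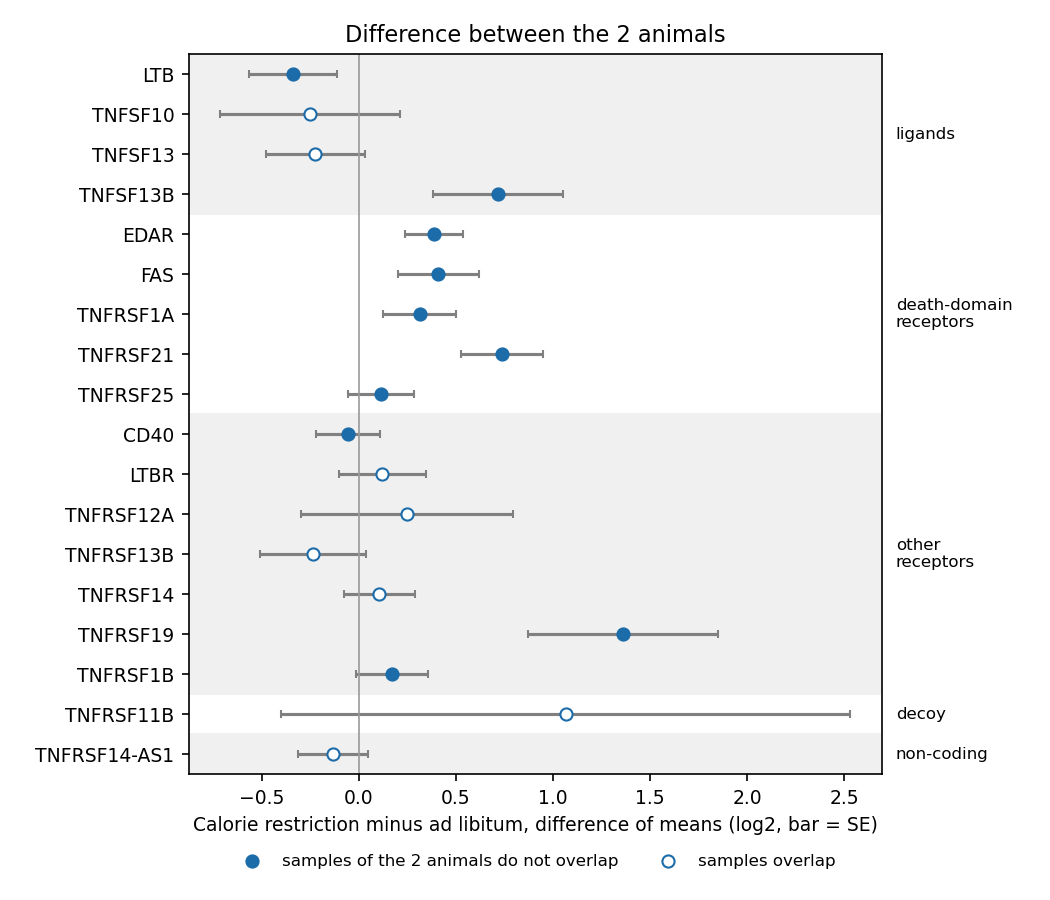
Difference of the 2 monkeys' mean log2 signals (calorie restriction minus ad libitum) for the 18 members past the filter, with bars of 1 standard error from limma; filled points are members whose samples do not overlap between the monkeys. The 5 receptors with a death domain past the filter, of which FAS passed only through the restricted monkey, lie to the right of 0 with no overlap, from TNFRSF25 at 0.11 (overlapping after repeated quantile normalisation) to TNFRSF21 at 0.74, and TNFRSF11B has the widest bar (standard error 1.47).

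Between the monkeys and with no level filter, both restricted samples lay above both ad libitum samples for 16 of the 44 members (36.4%, where 18.3% of all 19775 genes did so). Those below the filter were CD27, TNFRSF10A, the non-coding TNFRSF10B-AS1, TNFRSF10D, TNFRSF17, TNFSF11, TNFSF15 and TNFSF18. For TNFSF11 the nearest samples were 2.5367 (ad libitum sample 2) and 2.5369 (restricted sample 2), so low signals with minute gaps are counted. Past the filter, the members so placed were EDAR, FAS, TNFRSF19, TNFRSF1A, TNFRSF1B, TNFRSF21, TNFRSF25 and TNFSF13B, 8 of 18 members, against 16.6% of genes. FAS (means of 5.12 and 5.53) and TNFRSF19 (4.67 and 6.03) passed the filter only through the restricted monkey, where they were high, so the filter itself put them in this count, and neither passed it at the 60th percentile. FAS turned to -0.11 with plain probe sets. The restricted samples lay below the ad libitum ones for LTB, which turned to 0.04 with plain probe sets, and for CD40, which turned to 0.16 when its probe sets were averaged. In all, 10 of 18 members (55.6%), FAS and TNFRSF19 among them, did not overlap between monkeys, against 35.3% of all genes. Of the 8 measured receptors with a death domain, 6 were higher in the restricted monkey with no overlap, the 5 past the filter (FAS as above) and TNFRSF10A, while TNFRSF10B and NGFR overlapped. TNFRSF25 overlapped after repeated quantile normalisation, and this grouping was noticed after the values were seen. Of endothelial markers past the filter, 9 of 12 were likewise higher in the restricted monkey with no overlap. So were 4 of 10 macrophage, 2 of 9 smooth muscle, 2 of 6 granulosa and 1 of 4 T and NK cell markers. B and plasma cell markers gave 2 of 2, and luteal markers none of 9. Lower with no overlap were 6 of 9 smooth muscle, 3 of 4 theca and 2 of 7 fibroblast markers. The same held for 1 granulosa, 1 T and NK cell and 1 of 3 oocyte markers. The part of these markers in the members' differences was not tested. By size, TNFRSF19 was the one member past the filter 2-fold apart with no overlap (3.08% of all genes), a count that also rests on its passing the filter through the restricted monkey.

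The limma test between the monkeys, in which the error is the spread of each monkey's own samples and not of monkeys on a diet, called no member and no gene (0% of 9888 genes at a Benjamini-Hochberg adjusted p of 0.05). At an unadjusted p of 0.05 it passed 3 members, TNFRSF21, TNFRSF19 and EDAR, and 5.28% of genes. TNFRSF21, or death receptor 6, had 8.57 and 8.41 in the ad libitum monkey and 9.35 and 9.10 in the restricted monkey. Its mean was 8.49 ± 0.11 (SD, n = 2 samples) in the first and 9.22 ± 0.18 (SD, n = 2 samples) in the second, a 1.66-fold difference (0.74, limma standard error 0.21, adjusted p = 0.828). A second probe set, at 5.94 and 5.43, then 6.55 and 6.20, gave a difference of 0.69. EDAR, the receptor of ectodysplasin, had 5.32 and 5.38, then 5.76 and 5.71, with a difference of 0.39 (limma standard error 0.15, adjusted p = 0.879).

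For TNFRSF19 the difference was 1.36 (limma standard error 0.49, adjusted p = 0.879), with sample 2 of the ad libitum monkey below that array's median. It was 0.64 without sample 2 of the ad libitum monkey and 2.08 without its sample 1. TNFRSF11B overlapped between the monkeys, with means 1.07 apart (limma standard error 1.47). Its difference was -1.11 without sample 2 of the ad libitum monkey and 3.24 without its sample 1. Both values therefore rested on which ad libitum sample was kept. TNFRSF25, or death receptor 3, had 6.50 and 6.65, then 6.70 and 6.67, and differed by 0.11. For FAS the difference was 0.41 (limma standard error 0.21, adjusted p = 0.912), and its probe sets below the filter differed among themselves in sign.

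A change common to both monkeys and a change opposed between them were fitted with limma with the monkey as a block. The error of each fit came from the other change, and not from the spread of replicates. Both fits called 0 members and 0 genes after adjustment (0% of 9888 genes). At an unadjusted p of 0.05 the opposed fit passed 4 of 18 members, TNFSF10, TNFRSF12A, TNFRSF11B and TNFSF13B, against 7.46% of all genes, and the common fit 0 against 1.82%. Opposite signs were found in 10 members, 5 lower in the ad libitum and higher in the restricted monkey (27.3% of all genes) and 5 the other way (30.2%). These signs follow the sample numbers, and opposed and common changes would change places if the order were turned in 1 monkey.

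Downstream of the receptors, of 40 related and downstream genes past the filter, 2 were 2-fold lower in sample 2 of the ad libitum monkey (5.00%, near the 6.58% of all genes) and none was higher (2.67%), and 1 was lower in that of the restricted monkey (0.738%). ADAM17, the protease that frees TNF from the cell surface, had 8.16 and 7.08 in the ad libitum monkey (-1.08) and 8.48 and 8.44 in the restricted one. TNFAIP6, a TNF-induced hyaluronan-binding protein, had 8.34 and 5.89 (-2.45), then 7.37 and 7.98 (0.61). TNFAIP3, or A20, a feedback inhibitor of NF-kB, was level in the ad libitum monkey (7.70 and 7.68) and lower in sample 2 of the restricted monkey (8.14 and 6.95, -1.19). NFKBIA, which holds NF-kB in the cytoplasm, was close to 2-fold lower there too, at 9.14 and 8.19 (-0.96).

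None of 13 adaptors and kinases, 10 apoptosis and necroptosis genes and 4 NF-kB factors past the filter was 2-fold apart in either monkey. Their median changes were -0.09, -0.40 and -0.28 in the ad libitum monkey and -0.04, -0.05 and -0.22 in the restricted one. BAX, an executioner of mitochondrial apoptosis, had -0.83 and CFLAR, an inhibitor of caspase-8, -0.71 in the ad libitum monkey. The list of NF-kB inhibitors and targets had 1 of 9 lower in each monkey, TNFAIP6 in the first and TNFAIP3 in the second. Below the filter, PTX3 (8.36 and 3.47) and the chemokine CCL2 (5.38 and 2.69) of that list were lower in sample 2 of the ad libitum monkey too. CCL2 was higher in that of the restricted monkey (4.29 and 6.11).

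**Figure D5:**
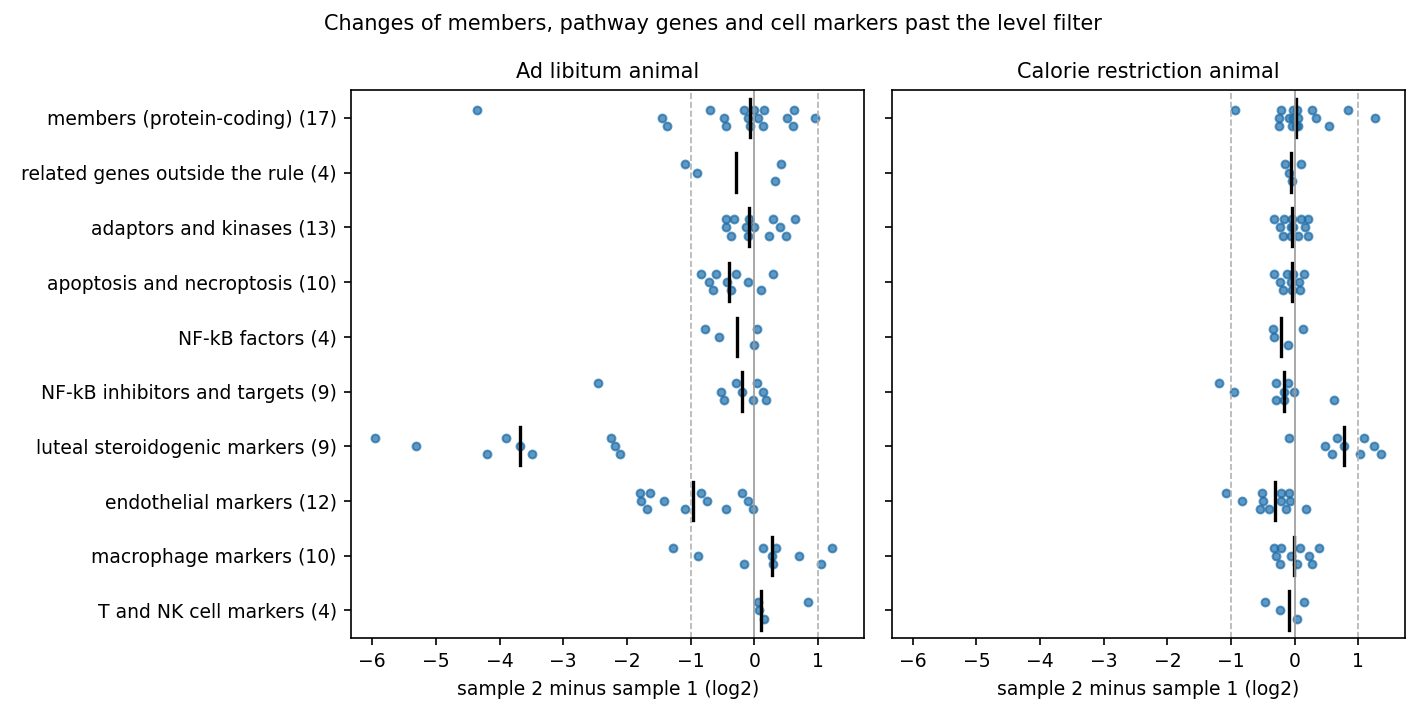
Log2 change from sample 1 to sample 2 of single genes past the filter (points) and their median (black bar) in each list, for the ad libitum monkey (left) and the restricted monkey (right); numbers in brackets count genes and dashed lines mark 2-fold. The members are centred near 0 in both monkeys, while luteal markers have medians of -3.68 and 0.77.

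Among the libraries, sample 2 of the ad libitum monkey differed most, with 912 to 1031 genes 2-fold apart in its pairs and 122 to 333 in the other pairs of samples. It was the lowest sample for 9 of 18 members (36.4% of all genes) and the highest for 6 (34.7% of all genes). Endothelial markers had means of 7.72 and 6.74, then 8.31 and 7.94, with 6 of 12 lower in sample 2 of the ad libitum monkey and 1 in that of the restricted one. The 11 measured macrophage markers averaged 7.58 and 7.78, then 8.05 and 8.0, with 2 of the 10 past the filter higher and 1 lower in sample 2 of the first and none 2-fold apart in the second. Of 12 T and NK cell markers 8 lay below the filter, and none of the other 4 was 2-fold apart. In sample 2 of the ad libitum monkey 2 of 3 oocyte, 1 of 7 fibroblast, 1 of 9 smooth muscle and 2 of 6 granulosa markers were higher, and 2 smooth muscle and 3 granulosa markers lower. In that of the restricted monkey 2 smooth muscle markers were higher and none of the other 3 lists had a 2-fold gene. The oocyte markers 2-fold higher in the ad libitum monkey were ZAR1 (4.42 and 8.12) and ZP4 (4.65 and 8.30). CYP19A1, among the granulosa markers lower there, is also in the luteal list. The part of these markers in the members' changes was not tested.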

How the data were processed

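Total RNA of corpus luteum was labelled with biotin and hybridised to 4 arrays, 2 per monkey, per the labels' protocols. The authors deposited log2 signals, 1 per probe set, made with Affymetrix Power Tools and RMA per the submitters' processing notes; their versions are not stated. The platform targets human transcripts, and with 4 arrays precision is limited. Of 54675 probe sets, 62 controls, 1801 with several gene symbols (8 of them with a member's symbol) and 11721 with none in the platform annotation were left out. The 44 members had 89 probe sets, and 19 had 1 each; 38 member symbols matched the RefSeq vervet annotation (mChlSab1.0.hap1). The probe set with the highest mean signal stood for its gene. limma 3.58.1 in R 4.3.3 (lmFit, eBayes with a trend, Benjamini-Hochberg over all 9888 genes past the level filter) tested the monkeys (2 residual degrees of freedom) and, with the monkey as a block, common and opposed changes (1 residual degree of freedom). The procedure was tested on simulated data, with independent error of the same size in all samples of a gene and no outlying array. That test therefore does not cover an array set apart like sample 2 of the ad libitum monkey. The members, the pathway and marker lists and the alternatives were chosen with earlier results of these data known. By rule, values in all samples are given for members past the filter that were 2-fold apart within a monkey, or between monkeys with no overlap, for a list of central members whatever their values, and for 2-fold members below the filter. TNFSF13, TNFSF13B, TNFRSF13B, TNFRSF14, TNFRSF14-AS1, TNFRSF25, EDAR, TNFRSF4 and TNFRSF9 were added after their values were seen. Alternatives were other level filters, normalisations, probe set rules and thresholds, no trend, sample number as a block and leaving out each array.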

Additional observations from a re-analysis of the deposited data

Results flagged for a closer look

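For 3 members past the level filter the changes of the 2 monkeys had opposite signs and were each at least 1.5-fold. TNFRSF11B changed by -4.36 in the ad libitum monkey and by 1.26 in the restricted monkey. TNFRSF12A changed by -1.37 and 0.83, and TNFSF10 by 0.95 and -0.94. Among all genes past the filter, 1.18% had the pair of signs of the first 2 genes at that size and 1.45% that of TNFSF10. In the limma fit of the opposed change the Benjamini-Hochberg adjusted p-values were 0.656 for TNFRSF11B, 0.646 for TNFRSF12A and 0.644 for TNFSF10, so none passed. Each change rests on 1 array per sample.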

How the results depend on the processing

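The lower TNFRSF11B and TNFRSF12A values in the ad libitum monkey and the higher TNFRSF11B value in the restricted monkey stayed 2-fold with the same sign under each normalisation and probe set rule that could be run. TNFRSF12A, TNF, TNFRSF1A and TNFSF13 have no probe set of plain design and were not checked under that rule. TNFRSF19 came to -0.62 when its probe sets were averaged, and with plain probe sets FAS came to 0.14 and LTB to -0.01 in the ad libitum monkey. Plain probe sets also turned TNFSF13B to 0.18 in the ad libitum and -0.20 in the restricted monkey, and TNFRSF14-AS1 to -0.27 in the first. No other change of the 18 members past the filter or of the central list moved by 0.5 or more, and none of 2-fold reversed. Repeated quantile normalisation turned the sign of the small changes of TNFRSF1A and TNFRSF1B in the ad libitum monkey and of CD40 and TNFRSF25 in the restricted one. Averaging the probe sets turned the sign of LTBR (to 0.02), TNFRSF14-AS1 (to -0.12) and CD40 in the ad libitum monkey. It also turned CD40 in the restricted monkey, where plain probe sets turned TNFRSF25. The cause of these shifts was not tested. Members 2-fold higher in the ad libitum monkey numbered 1 (TNFSF10) after repeated quantile normalisation. At 1.5-fold, 4 were lower in the ad libitum monkey (15.2% of genes) and 3 were higher, and 1 was lower and 2 higher in the restricted monkey. The shares of all genes for the other counts at 1.5-fold are not given here. Members higher in the restricted monkey with no overlap numbered 16 of 44 with no level filter (18.3% of genes) and 5 of 14 at the 60th percentile (16.7%), and between 8 and 11 of 18 with 1 array left out, where 26.9% to 41.2% of genes did so; the death-domain receptors among them numbered 3 of 3 at the 60th percentile and 2 of 3 with plain probe sets. These alternatives to the counts without overlap were chosen after seeing the data. Between monkeys, limma called 0 members, and by size 1 member passed. Leaving out each array gave 0 to 2 members: TNFRSF11B (adjusted p = 0.0491) and TNFRSF19 (adjusted p = 0.0146), both without sample 1 of the ad libitum monkey, where 474 genes passed and the lone sample 2 is assumed to vary like the other monkey's samples.

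With sample number as a replicate block, 0 members and 0 genes passed between monkeys, and with crossed numbers, also chosen after seeing the data, 0 members and 0 genes. Over genes past the filter, the 2 monkeys' changes had a Pearson r of -0.27. Because the order of the samples is not known, this value cannot tell whether the numbers pair the monkeys. Signals below the level filter limit what can be seen of TNF, FASLG, TNFSF11 and the TRAIL receptors.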
